A study of Mus musculus with 2 samples.

Results

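The Ces1 and Ces3 carboxylesterases were described here through 8 genes, Ces1b, Ces1c, Ces1d, Ces1e, Ces1f, Ces1g, Ces3a and Ces3b, taken by symbol from the 15526 genes of the deposited liver table. All 8 had a row. Liver RNA was sequenced from 2 pools, each made by mixing RNA of 3 female NOG-TKm30 mice. The AAOT pool came from mice of 22 weeks of age given 0.3% acetoaceto-o-toluidide over 4 weeks (AAOT, in which o-toluidine, an aromatic amine, is bound as an amide). The control pool came from mice of the same age, sex and genotype given 0% over the same time. NOG mice are severely immunodeficient. Mice of both pools carry the cDNA of HSVtk mutant clone 30, a viral thymidine kinase, driven by enhancer and promoter sequence of the mouse transthyretin gene, which is active in hepatocytes. For the background the labels give NOG in one place and C57BL in another. The AAOT library held 16528533 reads assigned to genes and the control library 18801241. With 1 library per group there is no spread between animals or libraries, no p-value was computed, and the 95% interval beside each ratio covers counting error only. A pooled RNA level also cannot tell fewer cells of a type from less RNA per cell.

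Carboxylesterases are serine hydrolases that cut ester, thioester and amide bonds in drugs, environmental chemicals and lipids. Most of those made by hepatocytes are held in the lumen of the endoplasmic reticulum by a retrieval signal at the end of the protein, where several also act on stored triglyceride and cholesteryl ester. In the mouse the group has expanded by tandem duplication, and at least Ces1c is secreted into the blood plasma, where it is the main esterase.

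The 8 genes lie in 2 places on chromosome 8. The Ces1 genes, all on the minus strand, stand within chr8:93020214-93379777 (GRCm38, RefSeq genes), a stretch that holds 8 Ces1 genes in all, with Ces1a and Ces1h at its ends. Ces3a, at chr8:105048576-105061928, and Ces3b, at chr8:105083733-105093929, stand on the plus strand next to the Ces2 genes. Their coding sequences differ by family and by pair. Between Ces1 genes the identity of the coding bases ran over 15 pairs between 72.1% for Ces1b with Ces1f and 88.8% for Ces1b with Ces1c. Ces3a and Ces3b were the closest pair, at 95.3%, and Ces1 with Ces3 pairs lay between 55.5% and 57.6%. The ends of the coding sequences are shown because the retrieval signal, in genes that have one, is encoded there. Which of the 8 ends act as such a signal was not tested. In the 18 bases below, read from GENCODE M21 transcripts, the capitals mark the last 4 codons before the stop codon.
Ces1b: cacAGAGAACACAAAtga
Ces1c: cacACAGAACACAAAtga
Ces1d: gaaCATGTTGAGCTCtga
Ces1e: gaaCACACTGAGCTGtga
Ces1f: tacCACAATGAGCTGtga
Ces1g: gaaCATGTTGAACTGtga
Ces3a: gttCCAGAGGAGCTCtga
Ces3b: gttCCAGAGGAGCTCtga
The last codon was AAA in 2 genes, Ces1b and Ces1c, CTC in Ces1d, Ces3a and Ces3b, and CTG in Ces1e, Ces1f and Ces1g. The 18 bases of Ces3a and Ces3b were the same. The plasma enzyme gene Ces1c thus shared its final codon with its neighbour Ces1b and with no other member.

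The 8 members shared no direction between the pools. On the scale of log2((AAOT + 1)/(control + 1)) in CPM, the authors' scaled counts per library total, 1 of 8 members reached 2-fold higher in the AAOT pool, against 0.773% of the 7761 genes with a mean of at least 10 CPM, and 0 were at least 2-fold lower, against 0.425%. At 1.5-fold, 2 members were higher, against 2.07% of genes, and 1 was lower, against 1.39%. The median log2 ratio of the 8 members was 0.17, beside -0.02 for the 7761 genes, and 5 members were above 0 and 3 below, against 46.4% and 53.6% of genes. The counting interval lay above equality for 5 members and below it for 2, against 18.7% and 20.8% of genes. Such an interval narrows as reads rise. Each member had at least 2260 reads in each library, while the 7761 genes begin at a mean of 10 CPM. These interval shares therefore compare genes of unlike depth. All 8 members were above the 10 CPM floor in both pools, so none entered through 1 pool alone.

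Ces1c was the most abundant carboxylesterase of the 8 in both pools. It was at 4953 CPM in the AAOT pool and 4065 CPM in the control pool, ranks 17 and 25 among all genes. Its share of all reads was 0.501% in the AAOT pool (exact binomial interval 0.498 to 0.505) and 0.402% in the control pool (0.399 to 0.404). Ces1c was 1.22-fold higher in the AAOT pool (95% counting interval 1.21 to 1.23). The difference of 888 CPM was the largest of any member in absolute terms, while 8.26% of genes above the floor had a ratio as high or higher.

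Ces1b, the neighbour of Ces1c in the cluster and its closest relative by coding sequence, was at 633 CPM in the AAOT pool and 516 CPM in the control pool. Its ratio of 1.23 (1.19 to 1.26) lay within the counting error of that of Ces1c. For each read of Ces1c there were 0.128 reads of Ces1b in the AAOT pool (0.125 to 0.130) and 0.127 in the control pool (0.124 to 0.130), a ratio that no scaling between libraries can alter. Reads of the pair can be confused in part, since 88.4% of the 50-base stretches of the Ces1b transcript and 83.0% of those of Ces1c occur in no other gene, and 9.92% of Ces1b stretches are also in Ces1c and 10.7% of Ces1c stretches in Ces1b. The remaining stretches that are not unique occur in genes outside the pair. The sum of Ces1b and Ces1c, to which the split of reads between these 2 genes makes no difference, was 5586 CPM in the AAOT pool and 4581 CPM in the control pool, 1.22-fold higher (1.21 to 1.23).

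The windows around the start sites of Ces1b and Ces1c are shown because the 2 genes had nearly the same ratio. RefSeq windows of 250 bases before to 50 bases after the start (GRCm38.p6, minus strand) were matched for 5 of the 8 members, Ces1b, Ces1c, Ces1e, Ces1g and Ces3b. The Ces1b window is chr8:93079968-93080267 and the Ces1c window is chr8:93131234-93131533. Capitals mark the longest run of letters they have in common, of 58 bases.
Ces1b: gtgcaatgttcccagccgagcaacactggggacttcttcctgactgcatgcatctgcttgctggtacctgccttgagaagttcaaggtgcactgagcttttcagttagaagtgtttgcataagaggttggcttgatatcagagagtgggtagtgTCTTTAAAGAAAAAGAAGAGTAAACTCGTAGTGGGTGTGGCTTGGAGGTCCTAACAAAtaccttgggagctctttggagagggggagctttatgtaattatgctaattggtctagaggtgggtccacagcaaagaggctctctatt
Ces1c: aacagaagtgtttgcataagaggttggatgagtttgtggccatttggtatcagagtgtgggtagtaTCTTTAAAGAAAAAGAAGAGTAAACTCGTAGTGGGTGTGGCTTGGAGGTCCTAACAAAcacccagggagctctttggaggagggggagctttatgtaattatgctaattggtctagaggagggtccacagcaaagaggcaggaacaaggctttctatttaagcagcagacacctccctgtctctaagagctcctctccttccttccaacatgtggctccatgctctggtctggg
Over a local alignment of 202 bases the windows of Ces1b and Ces1c were 88.1% identical. The alike bases lay at different distances from the 2 annotated starts. A match to CCAAT that both windows share, for example, was at position 9 in Ces1b and -78 in Ces1c. The longest run in common was 8 to 11 bases for every other pair of the 5 windows. Likeness of these windows is a description and shows no site or control.

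Ces1g had the highest ratio of the 8 genes. Its enzyme is a lipid hydrolase, and mice without it are known to become obese with fatty liver. Ces1g was at 300 CPM in the AAOT pool and 122 CPM in the control pool, from 5020 and 2260 reads. It was 2.46-fold higher (2.34 to 2.59), and 31 of the 7761 genes above the floor, itself included, had a log2 ratio as high or higher, which is 0.399%. Of the stretches of its transcript 98.3% are unique, so few of its reads can come from relatives. Among 109 genes outside the 8 with a mean of at least 1000 CPM, the ratios closest to that of Ces1g, with only 2 libraries to compare, were those of the fatty acid synthase Fasn (2.34-fold higher), Cyp2c37 (2.07-fold) and Gstm1 (2.96-fold).

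The Ces1g window, chr8:93337160-93337459 on the minus strand, is shown as that of the member with the highest ratio. Capitals mark matches on either strand to the TATA box, TATAAA, and to the CCAAT motif.
Ces1g: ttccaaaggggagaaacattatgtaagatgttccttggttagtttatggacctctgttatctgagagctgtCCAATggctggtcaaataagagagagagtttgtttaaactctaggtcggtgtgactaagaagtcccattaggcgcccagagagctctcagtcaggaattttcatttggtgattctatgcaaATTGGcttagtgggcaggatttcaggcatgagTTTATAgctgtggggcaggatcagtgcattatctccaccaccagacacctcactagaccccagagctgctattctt
It held 1 match to TATAAA, beginning 26 bases before the start (position -26). That match is on the strand opposite the printed one, where the letters read TTTATA. The window also held 2 matches to CCAAT. These 2 motifs were found in 14.2% and 38.02% of 27025 windows of the same length. Neither was particular to this member. The Ces3b window also had 1 match to TATAAA, at position -30 and on the strand of the gene. The Ces1b, Ces1c and Ces3b windows each had 1 match to CCAAT. The nuclear receptor motif AGGTCA (16.0% of windows), the antioxidant response element core TGACNNNGC (12.4%) and the xenobiotic response element core GCGTG (32.5%) had 0 matches in each of the 5 windows of members. The HNF1 motif GTTAAT (7.22% of windows) had 1 match, in the Ces3b window. All were searched on both strands, and no motif searched contains another.

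Ces1d, the triacylglycerol hydrolase of the endoplasmic reticulum that frees stored lipid for very low density lipoprotein (VLDL) assembly, had the next highest ratio. It was at 1063 CPM in the AAOT pool and 590 CPM in the control pool, from 17795 and 10957 reads. The ratio was 1.80 (1.76 to 1.85), and 1.04% of genes above the floor had one as high or higher. The transcript of Ces1d is 98.7% unique. Ces1d supplied 13.8% of the summed CPM of the 6 Ces1 genes in the AAOT pool and 9.76% in the control pool. Ces1g supplied 3.88% and 2.01% of that sum in the AAOT and control pools.

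Ces1e and Ces1f were nearly level between the pools. Ces1e, also called egasyn, binds beta-glucuronidase in the endoplasmic reticulum. It was at 174 CPM in the AAOT pool and 176 CPM in the control pool, and its ratio of 0.987 had an interval, 0.939 to 1.04, that holds equality. The beta-glucuronidase gene Gusb was at 32.9 CPM in the AAOT pool and 26.9 CPM in the control pool, a ratio of 1.22 (1.08 to 1.38). Ces1f, another hydrolase that acts on neutral lipid, was at 602 CPM in the AAOT pool and 578 CPM in the control pool, a ratio of 1.04 (1.01 to 1.07). Their transcripts are 96.8% and 98.4% unique. Within each library there were 1.77 reads of Ces1d for each read of Ces1f in the AAOT pool (1.72 to 1.81) and 1.02 in the control pool (0.995 to 1.05). There were likewise 1.72 reads of Ces1g for each read of Ces1e in the AAOT pool (1.64 to 1.80) and 0.690 in the control pool (0.654 to 0.728).

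**Figure D1:**
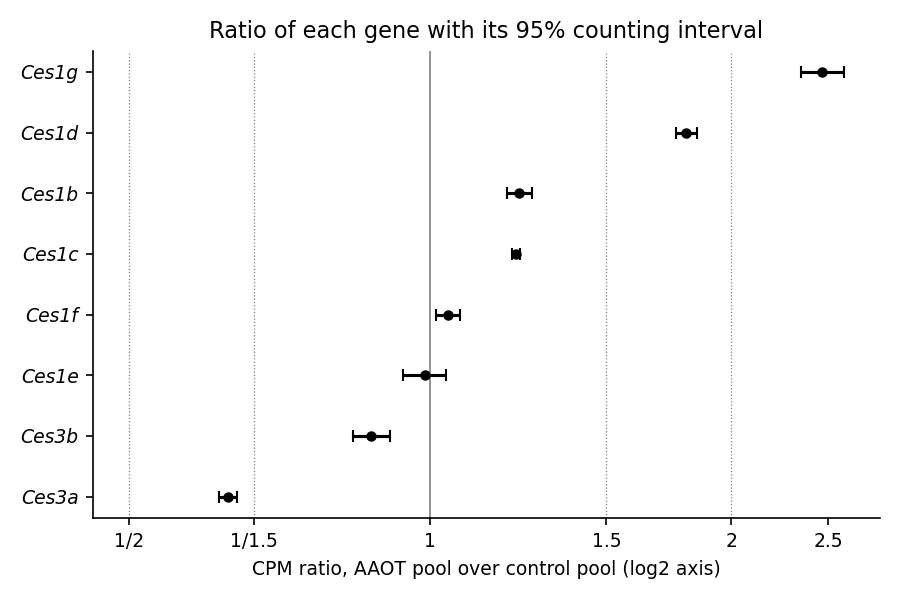
Ratio of CPM, AAOT pool over control pool, on a log2 axis for each of the 8 genes, with bars for the 95% counting interval; dotted lines stand at 1.5- and 2-fold in each direction. Ces1g at 2.46 and Ces1d at 1.80 lie to the right, Ces1b and Ces1c lie together at 1.23 and 1.22, and Ces3a is the lowest at 0.629.

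The Ces3 genes were lower in the AAOT pool. Ces3a was at 830 CPM in the AAOT pool and 1321 CPM in the control pool, from 13892 and 24523 reads. It was 1.59-fold lower (1.56 to 1.62), and 88 of the 7761 genes above the floor, or 1.13%, had a ratio as low or lower. Ces3b was at 231 CPM in the AAOT pool and 264 CPM in the control pool, 1.15-fold lower (1.098 to 1.20), with 15.4% of genes as low or lower. For each read of Ces3b there were 3.60 reads of Ces3a in the AAOT pool (3.47 to 3.73) and 4.999 in the control pool (4.85 to 5.16). The split is uncertain, since 69.1% of the stretches of Ces3a and 73.9% of those of Ces3b are unique and all shared ones of Ces3a, 30.9%, lie in Ces3b. The sum of the pair, to which that split makes no difference, was 1061 CPM in the AAOT pool and 1585 CPM in the control pool, 1.49-fold lower (1.47 to 1.52). Among the genes at 1000 CPM or more, the ratios closest to that of Ces3a were those of the secreted proteins fetuin A, Ahsg (1.596-fold lower), apolipoprotein A-I, Apoa1 (1.63-fold lower), and haptoglobin, Hp, whose ratio was 0.583.

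The order of the genes differed between the pools. Levels between genes are compared per kb of the longest coding transcript. In the AAOT pool the order was Ces1c at 2710 CPM per kb, Ces1d at 531, Ces3a at 406, Ces1b at 322, Ces1f at 312, Ces1g at 126, Ces3b at 96.0 and Ces1e at 84.0 CPM per kb. In the control pool it was Ces1c at 2224 CPM per kb, Ces3a at 645, Ces1f at 299.9, Ces1d at 294, Ces1b at 263, Ces3b at 109.9, Ces1e at 85.1 and Ces1g at 51.0 CPM per kb. Neighbours in these orders whose counting intervals overlapped were Ces1b and Ces1f in the AAOT pool and Ces1f and Ces1d in the control pool. The highest member was 32.2 times the lowest in the AAOT pool and 43.6 times in the control pool. Ces1d stood above Ces3a in the AAOT pool, with 1.28 reads for each read of Ces3a (1.25 to 1.31), and below it in the control pool, with 0.447 (0.437 to 0.457), so this ratio was 2.87 times as high in the AAOT pool.

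**Figure D2:**
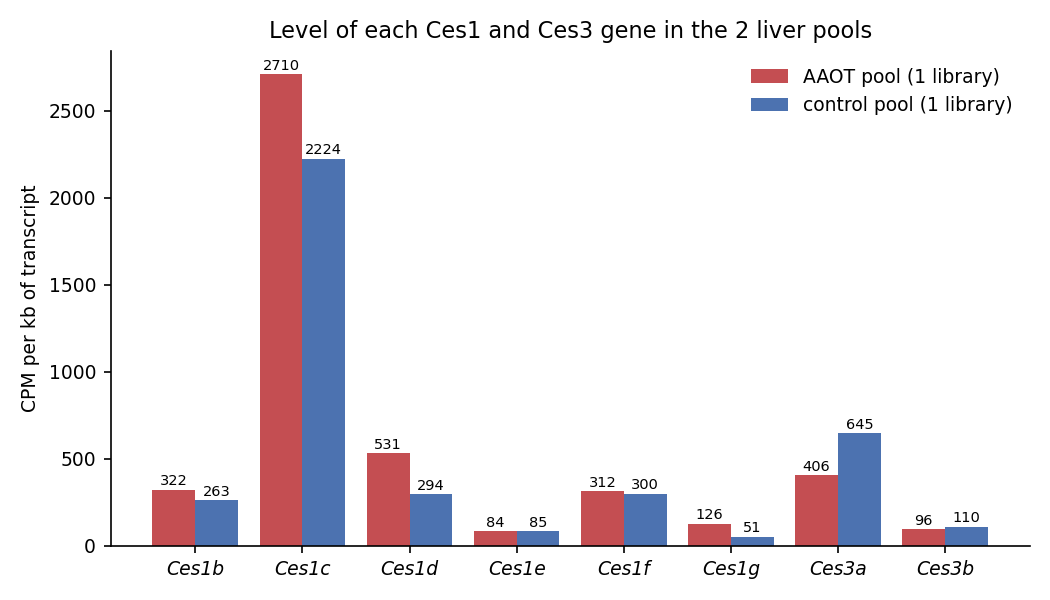
Level of each of the 8 genes as CPM per kb of transcript, with 1 bar for the AAOT library and 1 for the control library and the value above each bar. Ces1c stands far above the others in both pools, and Ces1d is above Ces3a in the AAOT pool and below it in the control pool.

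Summed, the 6 Ces1 genes reached 7726 CPM in the AAOT pool and 6047 CPM in the control pool, 1.28-fold higher (1.27 to 1.29). Without Ces1c the other 5 Ces1 genes were 1.40-fold higher (1.38 to 1.42). All 8 genes together were at 8787 CPM in the AAOT pool and 7632 CPM in the control pool, 1.15-fold higher (1.14 to 1.16), or 0.890% of reads in the AAOT pool (0.885 to 0.894) and 0.754% in the control pool (0.750 to 0.758). Ces1c made up 64.1% of the Ces1 sum in the AAOT pool and 67.2% in the control pool. Ces3a made up 78.3% of the Ces3 sum in the AAOT pool and 83.3% in the control pool.

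**Figure D3:**
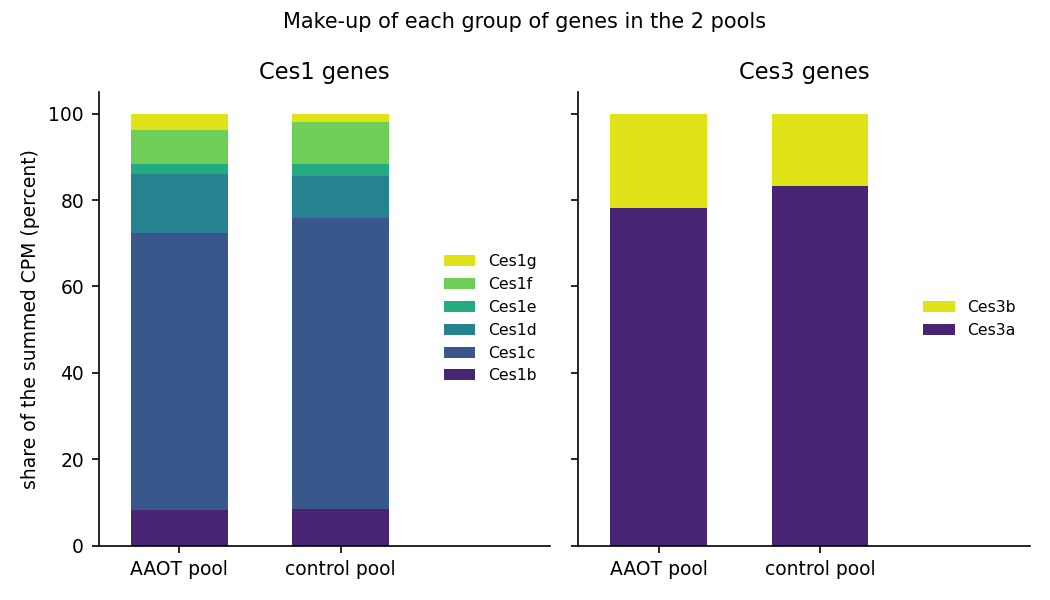
Share of the summed CPM, in percent, taken by each Ces1 gene (left) and each Ces3 gene (right), as stacked bars for the AAOT pool and the control pool. Ces1c holds 64.1% and 67.2% of the Ces1 sum in the AAOT and control pools, and the bands of Ces1d and Ces1g are wider in the AAOT pool.

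Of the other carboxylesterases, 9 genes had a row and 4 reached 10 CPM, all of them Ces2 genes, which encode enzymes with a preference for a small acyl group, and all 4 were above 0. Ces2c was at 42.4 CPM in the AAOT pool and 10.6 CPM in the control pool, and Ces2a was at 923 CPM in the AAOT pool and 480 CPM in the control pool, 1.92-fold higher (1.87 to 1.97). Ces2e and Ces2g were 1.29-fold (1.24 to 1.34) and 1.32-fold (1.22 to 1.43) higher. The low ones included 2 genes beside the members in the genome. Ces1a had 8 reads in the AAOT pool and 16 in the control pool, 0.555 times as much, and its interval of 0.206 to 1.37 holds equality. Ces4a, next to Ces3b, had 2 reads in the AAOT pool and 18 in the control pool, a ratio of 0.123 (0.0139 to 0.515). The remaining Ces2b, Ces2h and the pseudogene Ces2d-ps had between 1 and 24 reads in either pool.

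**Figure D4:**
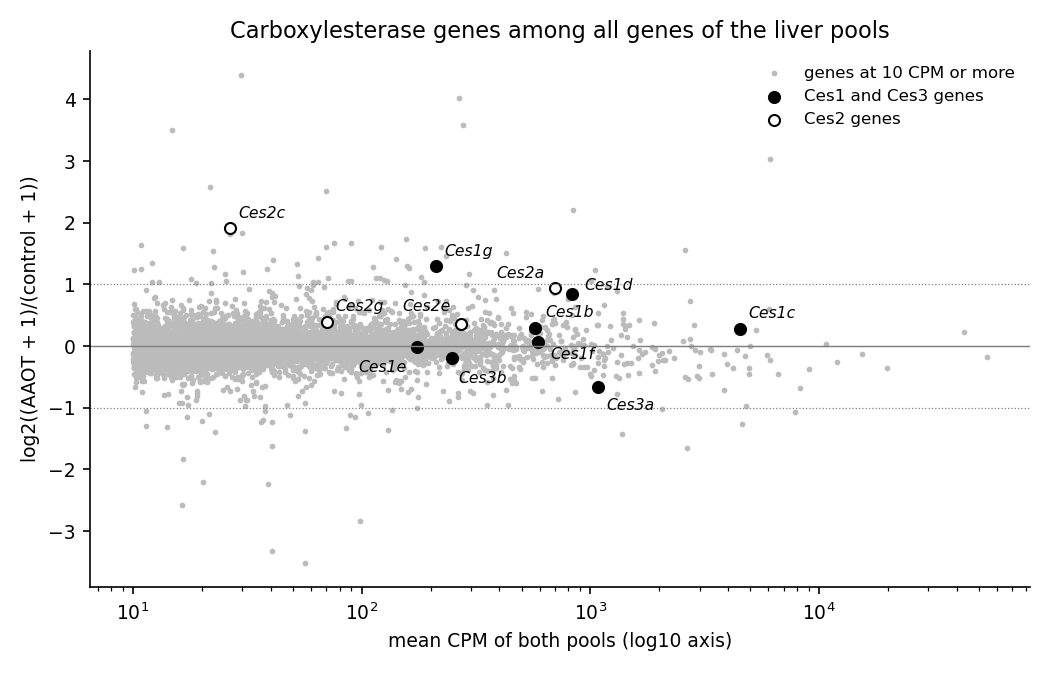
Log2 ratio, log2((AAOT + 1)/(control + 1)) in CPM, against the mean CPM of both pools on a log10 axis for the 7761 genes at 10 CPM or more (grey), the 8 Ces1 and Ces3 genes (black) and 4 Ces2 genes (open circles). Ces1g is the only black point above the dotted line at 2-fold, and Ces3a, at -0.67, is the lowest black point.

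Of the genes outside the family that flank the clusters, those reported beside the Ces3 genes at 10 CPM or more had ratios between 0.824 and 1.24. Pdp2 had a ratio of 0.871 (0.793 to 0.955), Cbfb 0.824 (0.695 to 0.975) and D230025D16Rik 1.24 (1.15 to 1.34), while Rrad had 4 reads in the AAOT pool and 2 in the control pool. Beside the Ces1 cluster, Mmp2, Lpcat2 and Gnao1 had between 9 and 43 reads in either pool and intervals that hold equality.

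Genes that work beside these enzymes showed no common direction. In a list of 19 other ester and amide hydrolases, 18 had a row and reached the floor, 0 were 1.5-fold higher or lower, and the median log2 ratio was 0.02. The arylacetamide deacetylase Aadac, which hydrolyses arylamides in the endoplasmic reticulum, was at 189 CPM in the AAOT pool and 178 CPM in the control pool. Butyrylcholinesterase, Bche, another esterase of plasma, was at 227 CPM in the AAOT pool and 207 CPM in the control pool. The members farthest from 0 were the kynurenine formamidase Afmid, 1.37-fold higher (1.29 to 1.45), the epoxide hydrolase Ephx1, 1.34-fold higher (1.31 to 1.38), Nceh1, 1.28-fold lower (1.17 to 1.39), and the monoglyceride lipase Mgll, 1.25-fold lower (1.21 to 1.31).

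In a list of 24 genes of triglyceride lipolysis and VLDL assembly, the processes that Ces1d serves, 22 reached the floor. Of these, 11 were above 0 and 11 below, 0 were 1.5-fold higher or lower, and the median was 0.01. Below the floor, Pnpla3 had 182 reads in the AAOT pool and 44 in the control pool, 4.59-fold higher (3.29 to 6.53). Cidec, also below it, had 24 and 28. The microsomal transfer protein Mttp was at 397 CPM in the AAOT pool and 361 CPM in the control pool, and Apob at 14747 CPM in the AAOT pool and 16077 CPM in the control pool. Tm6sf2, which is needed to load VLDL with lipid, was 1.41-fold higher (1.29 to 1.55), and the droplet coat gene Plin2 1.32-fold lower (1.28 to 1.37). Among 10 partners of the proteins in the endoplasmic reticulum 9 reached the floor, with a median of -0.01 and 0 past 1.5-fold. These included the receptors that bring back proteins carrying the retrieval signal, of which Kdelr1 was at 84.3 CPM in the AAOT pool and 90.4 CPM in the control pool. Of 20 transcription factors of liver lipid and xenobiotic metabolism, 1 was 1.5-fold higher, Mlxipl at 1.67-fold (1.59 to 1.75), 0 were 1.5-fold lower, and the median was -0.01. Ppara, a receptor for fatty acids, was 1.47-fold lower (1.42 to 1.52) and Srebf1, a regulator of lipid synthesis, 1.45-fold lower (1.41 to 1.499), both just short of that fold.

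Marker genes of CAR and PXR, receptors that answer to foreign chemicals, were higher in the AAOT pool. Of the members, Ces1g, Ces1d, Ces1b and Ces1c were higher there too, Ces1e and Ces1f were nearly level, and Ces3a and Ces3b were lower. Of 16 such marker genes, among them Ces2a and Ces2c, 14 reached the floor. Of these, 14 were above 0, against 46.4% of genes, and 5 were at least 2-fold higher, against 0.773%. The median was 0.79, beside -0.02 for the 7761 genes. The list was chosen with earlier results of these data known. Cyp2b10, the usual marker of CAR, was at 501 CPM in the AAOT pool and 29.8 CPM in the control pool. Whether the 8 members moved with these receptors was not tested.

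The markers of hepatocytes were abundant in both pools, as the liver label says. All 8 were lower in the AAOT pool, summing to 92213 CPM in the AAOT pool and 114349 CPM in the control pool, with a median of -0.41. Of these 2 were 1.5-fold lower, Apoa1 at 1.63-fold (1.62 to 1.65) and Ahsg at 1.60-fold (1.58 to 1.61). Of 8 pericentral hepatocyte genes 7 were below 0, with a median of -0.30 and a sum of 8058 CPM in the AAOT pool and 10109 CPM in the control pool. On the log2 scale with 1 CPM added, 1 of them was 1.5-fold higher and 1 lower. These were Cyp1a2, the gene above 0, at 1.89-fold higher (1.84 to 1.95), and Lgr5, at 1.75-fold lower (1.42 to 2.18), both given as plain ratios. Axin2, at -0.57, fell short of 1.5-fold on the log2 scale, though its plain ratio was 1.52-fold lower (1.30 to 1.78). All 8 periportal genes were above 0, with a median of 0.21 and a sum of 11587 CPM in the AAOT pool and 10173 CPM in the control pool. Macrophage, sinusoidal endothelial and stellate cell markers had medians of 0.07, -0.04 and -0.20, with 0 past 1.5-fold among 7, 7 and 6 genes above the floor. Of 6 cholangiocyte genes 1 reached the floor, Spp1, at 26.3 CPM in the AAOT pool and 34.4 CPM in the control pool, and of 8 blood cell genes 4 did, with a median of 0.07. Among blood cell genes below the floor, Hbb-bs had 102 reads in the AAOT pool and 0 in the control pool. Ptprc, also below it, had 145 and 175. Of 6 adipocyte genes, a cell type that makes Ces1d and Ces1f, 2 had a row and 0 reached the floor, and no kidney marker had a row (0 of 5). Of 7 intestine and pancreas genes 4 had a row and 1 reached the floor, the fatty acid binding protein Fabp2, at 39.4 CPM in the AAOT pool and 52.7 CPM in the control pool. The part of these markers in the ratios of the members was not tested.

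**Figure D5:**
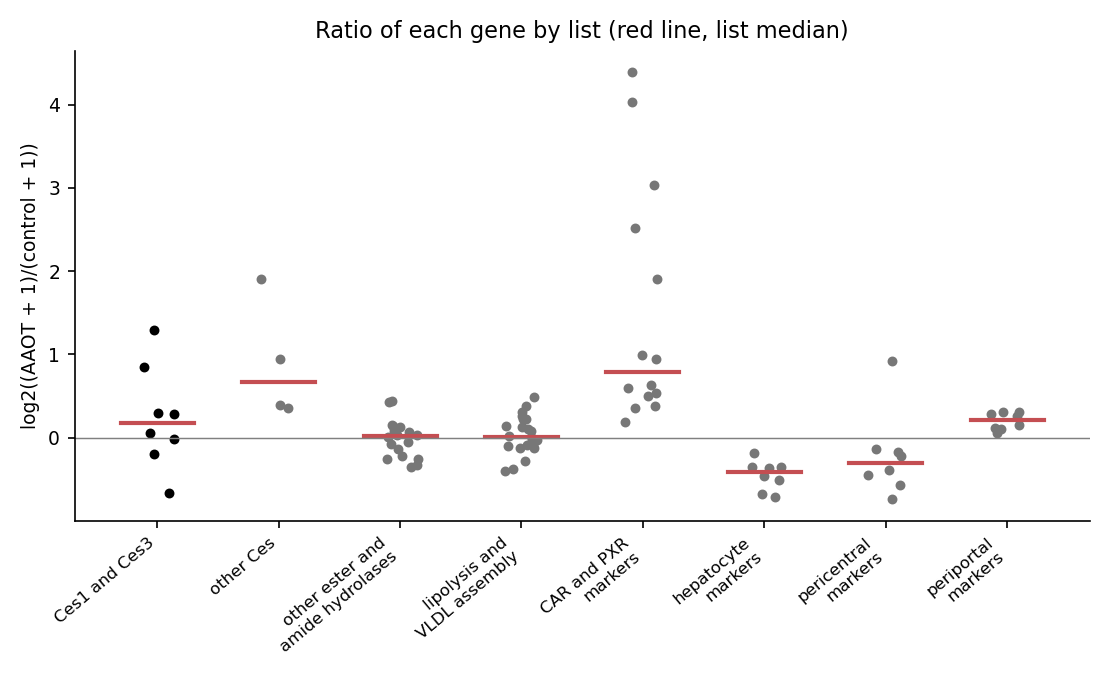
Log2 ratio, log2((AAOT + 1)/(control + 1)) in CPM, of each gene above 10 CPM in 8 lists, with points for genes and a red line for the list median. The Ces1 and Ces3 genes spread between -0.67 and 1.29 around a median of 0.17, the CAR and PXR markers lie above 0, and the hepatocyte markers lie below 0.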

How the data were processed

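The authors deposited 1 table of CPM with 1 column for each library, and the code in each sample's title gave the match. Tools named in the submitters' processing notes, with no roles, are edgeR, RSEM, Bowtie2 and Trimmomatic 0.38, with the build mm10. No annotation is named. RNA (200 ng per library) was depleted of ribosomal RNA and made into directional libraries, per the labels' protocols. In each column 100% of the deposited CPM divided by the smallest value above 0 were whole numbers (relative tolerance 1e-06), taken here as reads. The authors' scaling factors, 1.01 for AAOT and 0.988 for control, equalled TMM factors computed from those reads with edgeR 4.0.16 within 3.6e-06 (log2). With 1 library per group a count test on those reads has no replicate, and none was run.

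Ratios are of CPM, AAOT over control, with exact Clopper-Pearson 95% intervals conditional on the sum of both counts. They were tested on simulated counts that held counting error alone. That checks the code and not whether these libraries vary in the same way. Reads were not marked as molecules, so intervals cover counting error only. Log2 ratios add 1 CPM to each value and understate changes of low genes. Counts use genes with a mean of at least 10 CPM. Named are the 8 members, up to 4 genes per list farthest from 0, other Ces genes, the 2 nearest listed genes on each side of a cluster, and the 3 genes at 1000 CPM or more closest in ratio to the highest and lowest member. Aadac, Bche, Mttp, Apob and others named outside that rule were chosen after their values were seen. Members and lists were chosen with earlier results of these data known. Transcripts and their 50-base stretches came from GENCODE M21, genes and start windows from RefSeq, both GRCm38, the assembly behind mm10. Where a gene had several windows, that of the most upstream start was used. Alternatives were 5 scalings, 2 added constants, 3 floors and 2 sizes. Python 3.11.15, scipy 1.17.1, Biopython 1.88 and matplotlib 3.10.9 were used.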

Additional observations from a re-analysis of the deposited data

How the results depend on the processing

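No paired analysis was possible because each group is 1 library. Across the scalings and added constants tried (8 values per gene, the main one included), the log2 ratio of each member moved by at most 0.04, and under each of the 5 other scalings 2 members were 1.5-fold higher and 1 lower, and 1 was 2-fold higher and 0 lower. Ces1e, at -0.02, was at 0.02 when reads were scaled by the plain column total. With that scaling the members' median was 0.21, and the sums over the Ces1, Ces3 and all members were at 1.31, 0.686 and 1.18 times the control pool. With the column total taken without the 20 most abundant genes the Ces1 and total sums were at 1.29 and 1.16 times. Without Ces1c the total sum was at 1.07 times. Of the 7761 genes at or above 10 CPM, 60 were 2-fold higher and 33 lower; with a floor of 1 CPM 90 were higher and 55 lower, with a floor of 50 CPM 37 were higher and 15 lower, without a floor 94 and 60, at 1.5-fold 161 and 108, and at 4-fold 8 and 6. The TMM scaling was added after the data were seen. Depth limits only the low Ces genes: the members had at least 2260 reads in each library.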
